A study of Capra hircus with 9 samples.

Results

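In goat embryos, 176 mRNA transcripts were found at a clear level in the 2-cell embryo made by in vitro fertilization (IVF-2c) and more than 4-fold lower in both 8-cell libraries, that of fertilized embryos (IVF-8c) and that of embryos made by somatic cell nuclear transfer (SCNT-8c). They were chosen by these measured levels themselves. A transcript entered when its RefSeq accession began with XM_ (a predicted mRNA model), when it reached 5 FPKM in IVF-2c, when the log2 ratio of FPKM + 0.1 of IVF-2c to IVF-8c and that of IVF-2c to SCNT-8c were both above 2 (a 4-fold difference), and when IVF-8c and SCNT-8c differed by a log2 ratio of at most 1. FPKM counts the fragments of a transcript after division by transcript length and by library size, so it is a level per length. Of 30147 mRNA transcripts listed, 29872 were XM_ models and 7391 of those reached 5 FPKM in IVF-2c. Because the limits set the direction and the smallest size of every difference given for the members, their levels and ratios are a description and carry no test.

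The study compared embryos on either side of embryonic genome activation and asked which RNAs distinguish cloned from fertilized goat embryos. IVF-2c and IVF-8c embryos came from in vitro matured oocytes fertilized with sperm, and SCNT-8c embryos from enucleated oocytes that received the nucleus of a fibroblast grown from 1 female goat fetus and were activated without sperm. No gene had been edited and no transgene added in the embryos. Each condition was 1 library made from a pool of whole embryos, with cDNA amplified by a SMART-Seq low-input kit, so there is no spread between replicates against which any difference could be set. There was no 2-cell library of cloned embryos, so both 8-cell libraries are read against the same fertilized 2-cell library, and SCNT-8c differs from it in stage and in origin together. There was also no oocyte library, so RNA stored in the egg and RNA made by the embryo before the 2-cell stage cannot be told apart in IVF-2c.

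As background, a growing oocyte makes and stores mRNAs that serve meiosis, fertilization and the first cleavages while transcription is silent. These maternal mRNAs are bound by proteins that hold back or allow their translation, and many are then shortened at the poly(A) tail and degraded in waves. In the goat, as in cattle and sheep, the main activation of the embryo's own genome comes around the 8-cell stage, so that maternal clearance and new transcription overlap there. A library made with an oligo(dT) primer measures polyadenylated RNA, and a shorter tail and a lower amount of RNA cannot be told apart in it. FPKM is moreover a share of a library, and a lower amount of one mRNA and a larger amount of all others cannot be told apart either.

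Among the 7391 XM_ transcripts at the minimum, 509 (6.89%) were past the limit in IVF-8c and 371 (5.02%) in SCNT-8c. Past both limits were 208 transcripts, and 176 of them (2.38% of the 7391) also had similar levels in both 8-cell libraries and became members. The remaining 32 had 8-cell levels apart by more than a log2 ratio of 1, with 15 higher in IVF-8c and 17 higher in SCNT-8c. Both comparisons share the IVF-2c library, so the falls of a transcript to IVF-8c and to SCNT-8c are not independent of each other.

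The members were of moderate level. Their median was 17.9 FPKM in IVF-2c and, at the 8-cell stage, 2.74 (IVF-8c) and 2.67 (SCNT-8c). The middle part of the members, between the quartiles, ran from 9.68 to 35.4 FPKM in IVF-2c, from 1.33 to 5.75 in IVF-8c and from 1.39 to 6.21 in SCNT-8c. Over all 7391 transcripts the corresponding medians were 19.6, 14.6 and 15.5 FPKM, so the members started near the common level and differed from the rest at the 8-cell stage, which is what the rule selects. The median log2 fall, meaning the log2 ratio of IVF-2c to the 8-cell library, was 2.61 to IVF-8c and 2.47 to SCNT-8c in the members, and 0.56 and 0.47 over all 7391.

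**Figure D1:**
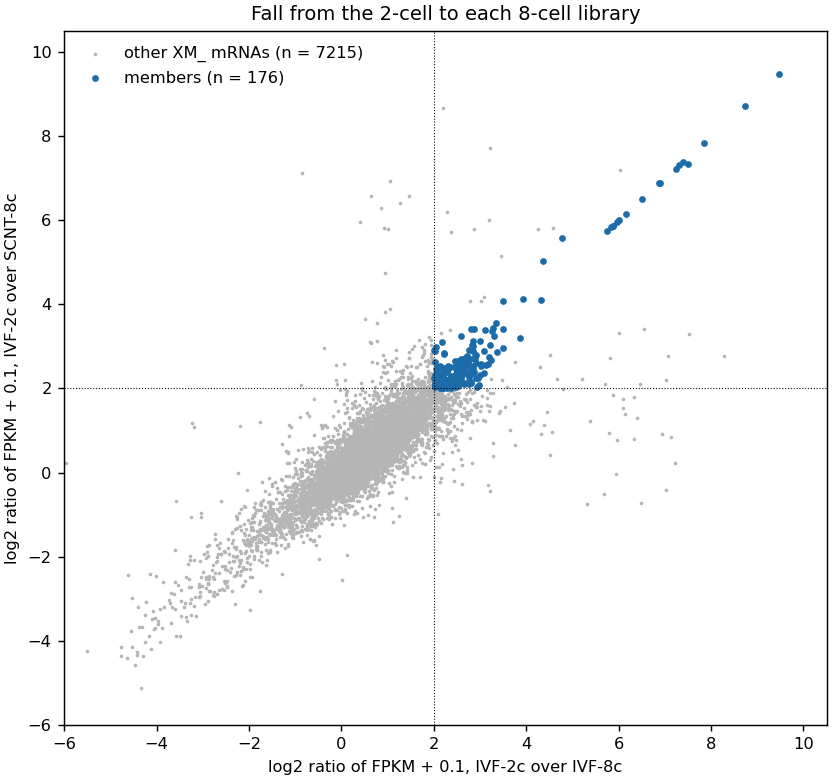
Log2 ratio of FPKM + 0.1 of IVF-2c to IVF-8c (horizontal axis) and to SCNT-8c (vertical axis) for XM_ mRNA transcripts at 5 FPKM or more in IVF-2c, 1 library per condition. Blue points are the 176 members, grey points the other 7215, and dotted lines mark the limit of 2. Most members sit just beyond the corner of the limits and a few trail to much larger ratios, where 8-cell values are listed at 0. 10 transcripts, among them 1 member, lie outside the axes.

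Most members lay close to the limits and were reduced rather than absent. The smaller of the 2 falls was at most 2.5 in 106 members, and above 3 in 31. Both 8-cell libraries still listed 158 of the 176 above 0, so the word lost describes few of them. The highest value still present was 255 FPKM in IVF-8c and 405 in SCNT-8c. Among the 158, the median fall was 2.57 to IVF-8c and 2.40 to SCNT-8c, and the largest were 4.76 and 5.57.

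Members were found at every level. They made up 2.34% of the 2009 transcripts between 5 and 10 FPKM in IVF-2c, 2.78% of the 1726 between 10 and 20, and 2.88% of the 1664 between 20 and 50. Above this the share was lower, with 1.81% of the 827 between 50 and 100 FPKM and 1.55% of the 1165 at 100 or more.

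A RefSeq table for the goat assembly ARS1.2, matched on the accession without its version, gave a gene symbol for 46 of the 176 members (26.1%), each from a different gene, against 48.3% of the 7391. Of the 46, 38 carry a gene name and 8 a LOC number. Put the other way, 46 of the 3570 XM_ transcripts at the minimum with a symbol (1.29%) were members. The 130 members without a symbol are described by accession and level only, so any account of function covers the named minority. The role groups below were drawn up after the member genes were known and are a way of ordering them, not a result.

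The egg coat and the oocyte's RNA-binding proteins come first. ZP4 (XM_005699001.1), which encodes a glycoprotein of the zona pellucida laid down around the growing oocyte, had the highest level of any named member, with 606 FPKM in IVF-2c, then 138 in IVF-8c or 104 in SCNT-8c. Its 8-cell levels remained above the IVF-2c level of most members, and its log2 falls were 2.13 and 2.54. ZAR1 (XM_013964626.1), zygote arrest 1, an RNA-binding protein of oocytes needed for the oocyte-to-embryo transition, was listed at 202, 27.2 and 30.7 FPKM in the same order. Levels given as 3 values follow this order of libraries from here on. Its falls of 2.89 and 2.71 were larger than those of ZP4, and it had nearly the same level in both 8-cell libraries. TDRKH encodes a tudor and KH domain protein of the piRNA pathway. Its member transcript (XM_013962407.1) was much lower throughout, at 6.01, 0.804 and 1.32 FPKM. That transcript made up 23.3% of the gene's FPKM in IVF-2c, and the gene summed over its transcripts was at 25.8, 5.97 and 8.12 FPKM.

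The rule applied to rescaled libraries kept ZAR1, while ZP4 and TDRKH dropped below the limit when the libraries were set to equal median ratios or to equal sums. The median-ratio factors amount to a lowering of the log2 falls by 0.38 for IVF-8c and 0.34 for SCNT-8c before the pseudocount, less for values near 0, since the typical mRNA was itself listed lower at the 8-cell stage. Median-ratio scaling kept 18 of the 46 named members past the limits, and equal sums kept 16. No member could change direction under a shift of this size, because the rule asks for falls above 2. Under each pseudocount and scaling tried, 15 named members stayed past the limits. These were ELF1, FANCL, LMAN2, MATR3, NUDCD2, POLM, RIMKLA, TCP11L2, THOC6, TMEM109, TMEM219, TYMS and ZAR1, with LOC102169972 and LOC102170832. This holds for the member transcripts. Summed over all transcripts of the gene, ELF1, FANCL, MATR3, NUDCD2, THOC6, TMEM109 and TMEM219 were not past the limits, as described further on.

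A second group acts in DNA synthesis, DNA repair and chromosome segregation. TYMS (XM_005697064.2), thymidylate synthase, which makes the thymidine nucleotide for DNA, was listed at 416 FPKM in IVF-2c, then 56.2 in IVF-8c or 60.5 in SCNT-8c. Its falls of 2.88 and 2.78 put it among the 10 named members with the largest falls. RPA3 (XM_005678964.2), the small subunit of the replication protein A complex that coats single-stranded DNA, stood at 154, 32.8 and 21.6 FPKM, with the lower 8-cell level in SCNT-8c. POLM (XM_005679335.2), DNA polymerase mu of the end-joining pathway, stood at 68.5, 9.29 and 12.9 FPKM. The ubiquitin ligase subunit of the Fanconi anaemia pathway, FANCL (XM_013967673.1), was listed at 40.4, 6.66 and 4.19 FPKM. ESPL1 (XM_013963760.1), separase, the protease that opens cohesin rings at anaphase, was low, at 9.79, 2.28 and 1.69 FPKM. RPA3 and ESPL1 were below the limit after either rescaling, so in them the size of the difference rests on the deposited scale.

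RNA-handling and transcription factors form another group. THOC6 (XM_005697415.1), a subunit of the complex that couples transcription to mRNA export, was listed at 21.0 FPKM in IVF-2c and, at the 8-cell stage, 2.33 (IVF-8c) and 3.52 (SCNT-8c). The ETS transcription factor ELF1 (XM_005687403.2) stood at 28.6, 4.08 and 5.43 FPKM. The zinc finger gene GLI4 (XM_013969058.1) stood at 14.8, 2.80 and 2.95 FPKM. MATR3 (XM_005683005.2), a nuclear matrix protein that binds RNA and DNA, was at 6.11 FPKM in IVF-2c and listed at 0 in both 8-cell libraries. For 3 of these genes (THOC6, ELF1 and MATR3) other transcripts of the same gene were measured at substantial levels and are described further on.

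Mitochondrial and metabolic genes were spread over a wide range of levels. GRPEL1 (XM_005681976.2), the nucleotide exchange factor of mitochondrial Hsp70, was the highest at 277 FPKM in IVF-2c, then 66.0 in IVF-8c or 53.6 in SCNT-8c. RIMKLA (XM_005678611.2), which synthesizes N-acetylaspartylglutamate, followed at 38.2, 5.82 and 6.44 FPKM. Others were between 5.20 and 19.0 FPKM in IVF-2c. They were PAFAH1B3, a subunit of the platelet-activating factor acetylhydrolase, the fatty acid elongation dehydratase HACD3, COQ6 of coenzyme Q synthesis, the AMP deaminase AMPD3, ACP6, a phosphatase of lysophosphatidic acid, and PPP1R3F, a regulatory subunit of protein phosphatase 1. The lowest, ACP6, went from 5.20 FPKM to 0.779 in IVF-8c and 0.993 in SCNT-8c. PPP1R3F had the largest falls of this group, 3.17 and 2.59, from 5.43 FPKM to 0.513 and 0.816.

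Membrane traffic and the secretory pathway were represented by LMAN2, GBF1, SNX11, KDELC1 and PEF1. LMAN2 (XM_013965401.1), a lectin that carries glycoproteins between the endoplasmic reticulum and the Golgi, was listed at 39.1, 5.89 and 5.65 FPKM. The sorting nexin SNX11 stood at 30.3, 5.41 and 6.96 FPKM, and the endoplasmic reticulum glucosyltransferase KDELC1 at 26.8, 5.18 and 6.07. The calcium-binding protein PEF1 was at 10.1, 1.37 and 1.92 FPKM. GBF1, the exchange factor that activates Arf at the Golgi, was at 6.003, 1.12 and 1.26. Within this group LMAN2 alone stayed past the limits under all pseudocounts and scalings tried.

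Ubiquitin ligases and stress or signalling proteins were also among the named members. TRIM36 was listed at 7.20 FPKM in IVF-2c and, at the 8-cell stage, 0.840 (IVF-8c) and 1.44 (SCNT-8c), and CBLC, a relative of the CBL ubiquitin ligases, at 6.53, 0.861 and 1.41. In both the IVF-8c level was the lower, with log2 ratios to SCNT-8c of -0.71 and -0.65. The mono-ADP-ribosyltransferase PARP12 stood at 77.7, 15.03 and 17.9 FPKM. The corticotropin-releasing hormone gene CRH, a peptide hormone best known from the hypothalamus, stood at 64.9, 13.8 and 8.94 FPKM, with the lower level in SCNT-8c.

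The named members not yet described belong to no shared role. NUDCD2 (XM_005683370.2), a co-chaperone, was listed at 111 FPKM in IVF-2c, then 11.7 in IVF-8c or 17.3 in SCNT-8c. TTC27, a tetratricopeptide repeat protein, stood at 67.6, 16.3 and 13.5 FPKM, and the membrane protein TMEM109 (XM_005699656.2) at 61.6, 8.47 and 7.56. TCP11L2 (XM_005680574.2) had the largest smaller fall of the named members above 0 in both 8-cell libraries, 2.86 to IVF-8c and 3.40 to SCNT-8c, from 32.2 FPKM to 4.34 and 2.95. Between 8.43 and 38.8 FPKM in IVF-2c lay MVP, the main protein of vault particles, SLC3A2, the heavy chain of several amino acid transporters, the selenium-binding protein SELENBP1, and the membrane proteins TMEM125 and TMEM219. Of these TMEM219 (XM_005697682.2) differed most, at 11.9 FPKM in IVF-2c, listed at 0 in IVF-8c and at 0.000610 in SCNT-8c. The highest of the 8 LOC genes was LOC102190247 at 193, 47.1 and 45.4 FPKM, followed by LOC102170832 at 126, 18.7 and 20.6 and LOC102169972 at 104, 18.2 and 18.1.

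**Figure D2:**
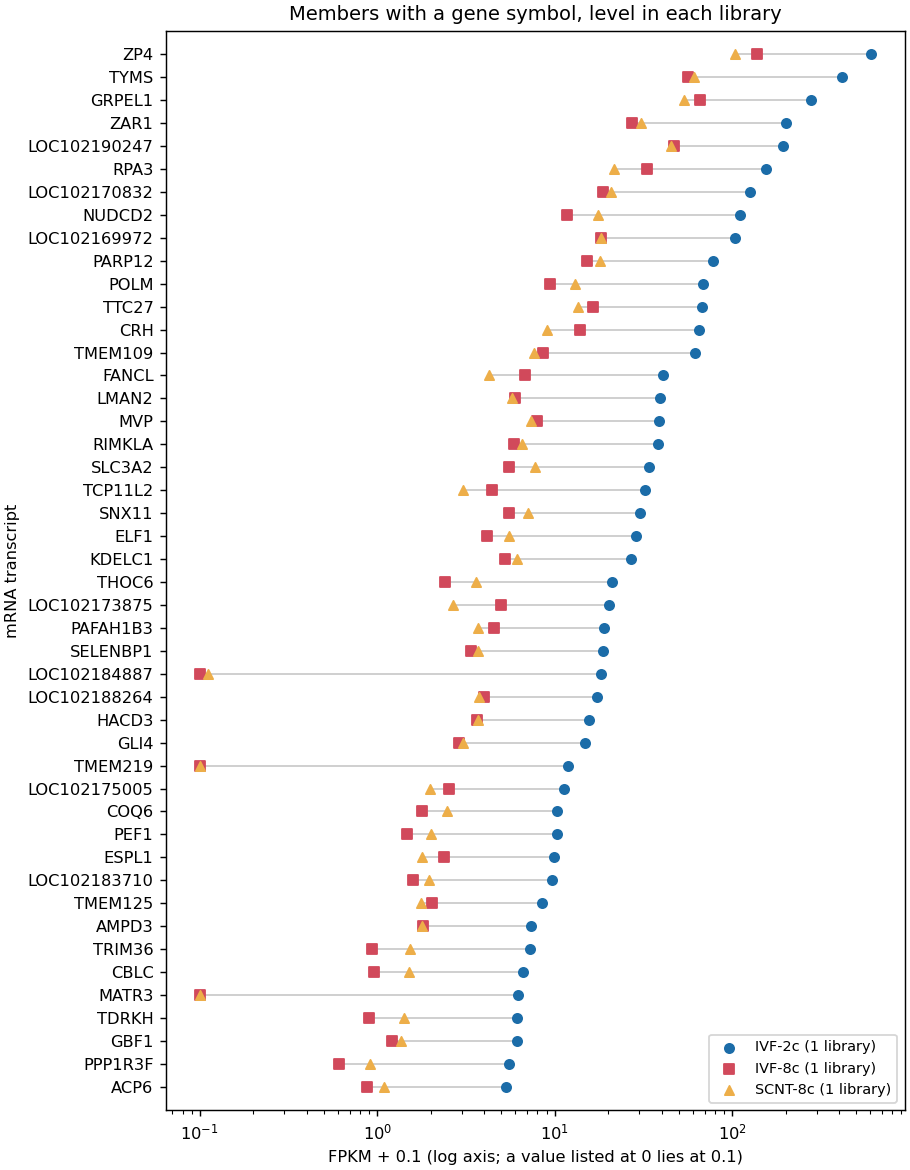
FPKM + 0.1 on a log axis of the 46 members with a gene symbol, ordered by the IVF-2c level, with 1 library per condition (circle IVF-2c, square IVF-8c, triangle SCNT-8c) and a line from the lowest to the highest value. The 8-cell symbols lie close together and left of the circle in every row, as the rule requires. LOC102184887, TMEM219 and MATR3 stand out with 8-cell values at or near 0.

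One transcript without a symbol dominated the IVF-2c library. XM_013971491.1 was listed at 391451 FPKM in IVF-2c and at 0 in both IVF-8c and SCNT-8c. It alone made up 28.0% of the summed mRNA FPKM of IVF-2c. Its transcript length is not given in the table, and whether this value is a true level or a failed estimate was not tested. The other members together made up 0.836% of the IVF-2c sum but 0.138% of that of IVF-8c and 0.161% of that of SCNT-8c. Next in level was XM_013976082.1, at 3732 FPKM in IVF-2c and, at the 8-cell stage, 255 (IVF-8c) and 405 (SCNT-8c), with falls of 3.87 and 3.21. Setting the libraries to equal sums after leaving out the 10 highest transcripts of each library gave 208 members that included all 176. The IVF-2c sum was 1.3957e+06 FPKM with XM_013971491.1 and 1.00425e+06 without it. The sums of IVF-8c and SCNT-8c were 1.12812e+06 and 1.08439e+06. The direction in which equal sums shift the falls therefore rests on this transcript. Members under equal sums with only this transcript left out were not counted.

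The largest falls belonged to transcripts listed at 0. In all, 16 members were listed at 0 in both 8-cell libraries and 2 more (TMEM219 and LOC102184887) in IVF-8c with a trace in SCNT-8c. Of the 16, MATR3 is the only one with a symbol. Apart from XM_013971491.1 their IVF-2c levels were modest, with XM_013966326.1 at 70.9 FPKM and XM_013975357.1 at 42.3 the next highest. XM_013970877.1 and XM_013977203.1 had identical values, 5.74 FPKM in IVF-2c and 0 in both 8-cell libraries. An exact 0 in such a table can be an estimate that assigned all fragments to another transcript of the gene or failed, so no fold is given for these. Among members measured above 0 in every library, XM_005682035.2 had the largest falls, with 109 FPKM in IVF-2c, then 3.92 in IVF-8c or 2.204 in SCNT-8c.

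Between IVF-8c and SCNT-8c the members were limited to a 2-fold difference by the rule, and within that limit neither library was clearly lower. The log2 ratio of IVF-8c to SCNT-8c had a median of -0.03 in the members and -0.07 over all 7391 transcripts. Of the 158 members above 0 in both, 89 (56.3%) were lower in IVF-8c and 69 lower in SCNT-8c. Of all 7391, values of 0 included, 56.6% were lower in IVF-8c, and of all 176 members 51.7%. Equal sums moved the share to 63.3% of the 158 and 61.4% of all 7391, and median ratios to 53.8% and 52.3%, so both shares moved with the scale. A log2 ratio of at most 0.5 in either direction was seen in 144 of the 176.

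At the edges of that limit stood the members that differed most between fertilized and cloned 8-cell embryos. XM_013965011.1 was listed at 7.64 FPKM in IVF-2c and, at the 8-cell stage, 1.76 (IVF-8c) and 0.870 (SCNT-8c), and XM_005709645.2 at 28.4, 6.26 and 3.22. LOC102173875 stood at 20.03, 4.91 and 2.59 FPKM, a log2 ratio of IVF-8c to SCNT-8c of 0.90. These 3 kept more of their level in IVF-8c. The opposite was seen for XM_005679368.2 at 29.6, 3.80 and 7.17 FPKM, XM_005702132.2 at 16.8, 2.06 and 3.88, and XM_013977248.1 at 14.1, 1.56 and 2.66. With 1 library each, no difference of this size can be set against a spread between embryo pools.

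A transcript-level difference can come from a whole gene or from 1 of its transcripts, and the members held both. Of the 46 named genes, 27 had a single transcript in the table and 19 had others, 30 in all. The share of genes with several transcripts was much the same in the named members (41.3%) and in all 3570 named XM_ transcripts at the minimum (42.1%). In 16 of the genes, 21 other transcripts reached 1 FPKM in some library. Of these 21, 11 were lower in both 8-cell libraries, 8 higher in both and 2 mixed, and under median-ratio scaling or equal sums 10 were lower and 10 higher. Of the 21, 5 (23.8%) were lower in both by a log2 ratio above 1. Over all XM_ and NM_ transcripts with a symbol and at 5 FPKM or more in IVF-2c the share was 16.9%. Only 15 of the 21 reached that minimum, and all 5 were among these 15, so the 2 shares have unlike bases.

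NUDCD2 is an example in which the other transcript held its level. While the member transcript went from 111 FPKM to 11.7 and 17.3, XM_013965744.1 was listed at 186 FPKM in IVF-2c, then 268 in IVF-8c or 203 in SCNT-8c. The member's share of the gene's FPKM was 37.4% in IVF-2c but 4.18% (IVF-8c) and 7.88% (SCNT-8c) at the 8-cell stage. The gene summed over both transcripts was at 297, 279 and 220 FPKM, a small difference beside that of the member.

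FANCL and ELF1 showed the same arrangement. The second FANCL transcript, XM_005686628.1, was at 99.0 FPKM in IVF-2c and, at the 8-cell stage, 105 (IVF-8c) and 91.4 (SCNT-8c), and the member's share of the gene was 29.0%, 5.97% and 4.38%. The second ELF1 transcript, XM_013968117.1, was at 16.4, 26.1 and 27.3 FPKM, and the member's share was 63.5%, 13.5% and 16.6%. In both genes the listed transcripts changed places or drew apart while the summed level differed by a log2 ratio below 1 (0.32 and 0.54 for FANCL, 0.58 and 0.46 for ELF1).

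In MATR3 the gene as a whole was higher at the 8-cell stage. Its member transcript was at 6.11 FPKM in IVF-2c and 0 later, but XM_005683007.2 was at 25.96, 68.8 and 57.4 FPKM and XM_005683008.2 at 0.867, 6.83 and 6.91. The sum was 32.9, 75.7 and 64.3 FPKM, and MATR3 was the only named member gene whose sum was higher in both 8-cell libraries as deposited, joined by LOC102184887 after median-ratio scaling or equal sums. LOC102184887, with 6 transcripts, was at 60.3, 48.9 and 58.0 FPKM when summed, although its member was listed at 18.1, 0 and 0.0120. LOC102183710 and TMEM219 likewise had another transcript that remained, XM_005689961.1 at 43.1, 28.7 and 25.1 FPKM and XM_005697683.2 at 9.14, 11.7 and 7.68.

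In other genes the transcripts moved together. The second LMAN2 transcript, XM_013965400.1, was listed at 11.5 FPKM in IVF-2c, then 3.47 in IVF-8c or 1.84 in SCNT-8c, and the summed gene, at 50.6, 9.36 and 7.48 FPKM, was past all limits. THOC6 and TMEM109 lay in between. XM_005697416.1 of THOC6 was at 38.6, 14.96 and 25.1 FPKM and XM_005699655.2 of TMEM109 at 27.5, 9.94 and 19.2, lower at the 8-cell stage but less so than the members, above all in SCNT-8c.

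Over all named genes, the rule held for the summed level in 33 of 46 and not in 13. The 13 were AMPD3, ELF1, FANCL, GBF1, LOC102183710, LOC102184887, MATR3, NUDCD2, PPP1R3F, TDRKH, THOC6, TMEM109 and TMEM219. Of the 16 genes with another transcript at 1 FPKM or more, 4 passed when summed (LMAN2, PAFAH1B3, TCP11L2 and ZP4). Genes without a member that passed when summed were DCAF4, FLAD1, MUTYH and TEX264, together with LGALS16, whose curated NM_ transcript alone met the limits. Estimates for transcripts of 1 gene share fragments, so the split between them is less certain than their sum, and no error of the split is given in the table.

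**Figure D3:**
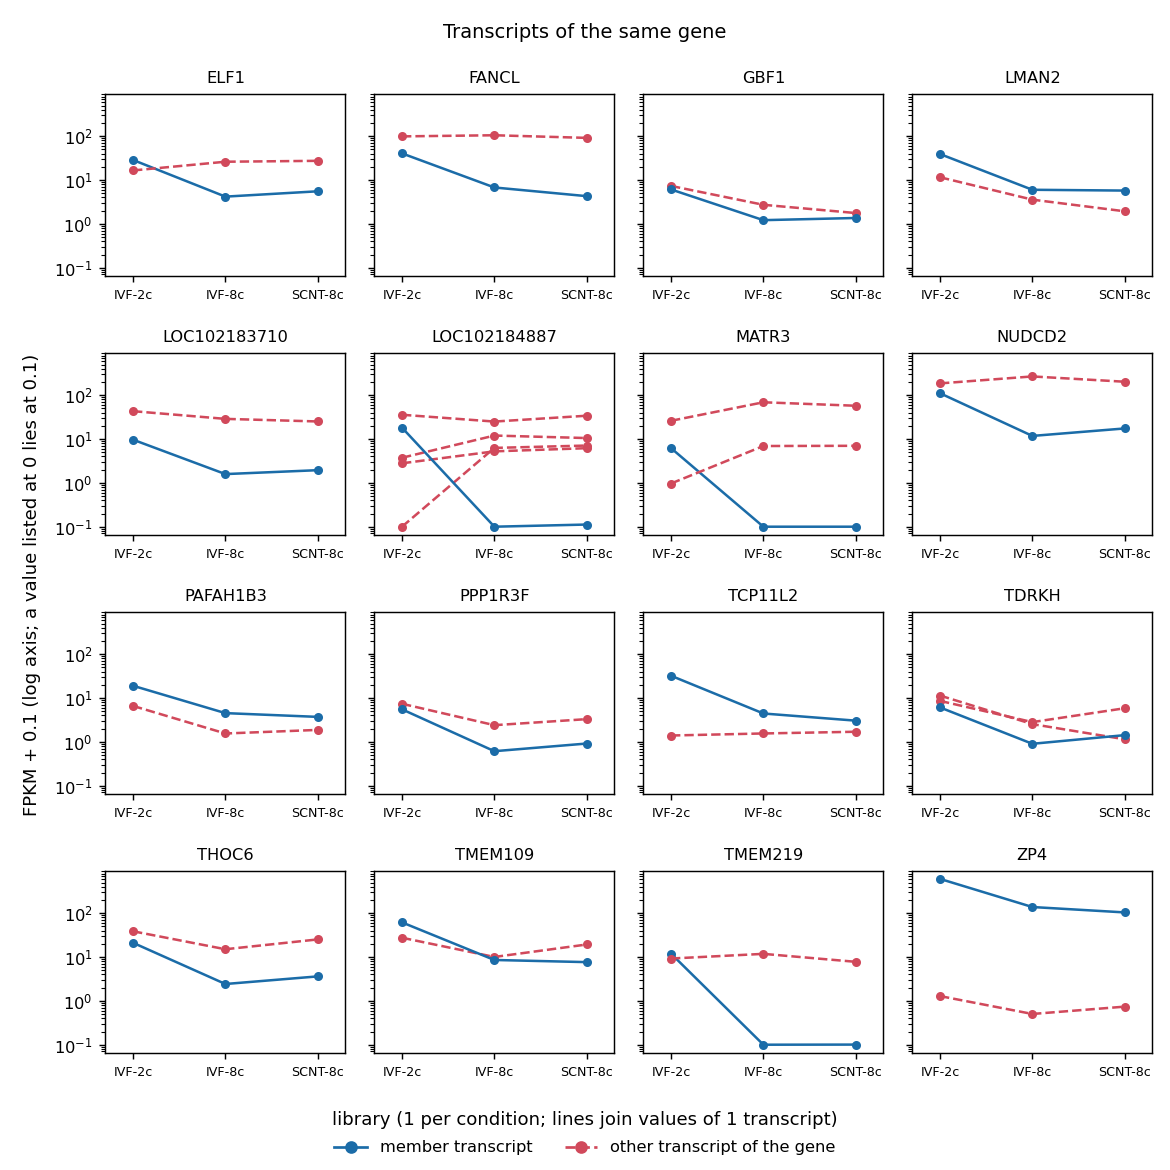
FPKM + 0.1 on a shared log axis in each library (1 per condition) for the 16 named member genes with another transcript at 1 FPKM or more. Solid blue lines are the member transcripts and dashed red lines the other transcripts of the gene that reach 1 FPKM. The dashed lines stay level or run upward in ELF1, FANCL, MATR3 and NUDCD2 and run downward with the member in LMAN2, GBF1 and PAFAH1B3.

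Known oocyte genes give a setting for the named members. Of 18 oocyte marker genes listed, 9 were matched by accession, and 10 of their 11 transcripts reached 5 FPKM in IVF-2c. All 10 were lower in both 8-cell libraries as deposited, beside 62.3% of the 3651 XM_ and NM_ transcripts at the minimum with a symbol. After median-ratio scaling or equal sums 9 of the 10 were lower in both, beside 44.2% and 45.2% of the 3651. By a log2 ratio above 1 in both, 7 of the 10 were lower as deposited, beside 616 of the 3651 (16.9%), and 5 of the 10 after either scaling, beside 8.24% with median ratios and 8.63% with equal sums. ZP4 and ZAR1 were the only members among them. Since ZP4 and ZAR1 were chosen by their falls, every count of lower transcripts given here includes them by construction, also after scaling. The shares of the 10 are therefore not a like comparison with those of the 3651.

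The oocyte genes that were not members lay short of the fall limit in IVF-8c, SCNT-8c or both. For the XM_ transcripts, whose 8-cell levels were within the limit of each other, this follows from the rule. BMP15 and a GDF9 transcript carry NM_ accessions, which the rule keeps out whatever their falls. ZP2, another zona pellucida glycoprotein, was listed at 682 FPKM in IVF-2c and, at the 8-cell stage, 252 (IVF-8c) and 200.1 (SCNT-8c). The kinase MOS, which holds the egg in metaphase of the second meiotic division, stood at 1724, 397 and 690 FPKM. Its log2 fall to IVF-8c, 2.12, was close to that of ZP4, 2.13, while its fall to SCNT-8c was 1.32. BMP15, an oocyte-secreted growth factor, stood at 473, 177 and 227 FPKM. BTG4, the adaptor that brings the CCR4-NOT deadenylase to maternal mRNAs, remained abundant at 10551 FPKM in IVF-2c, then 7830 in IVF-8c or 9371 in SCNT-8c. ZP4 and ZP2 thus began at like levels per length in IVF-2c, and ZP4 was the lower in both 8-cell libraries.

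**Figure D4:**
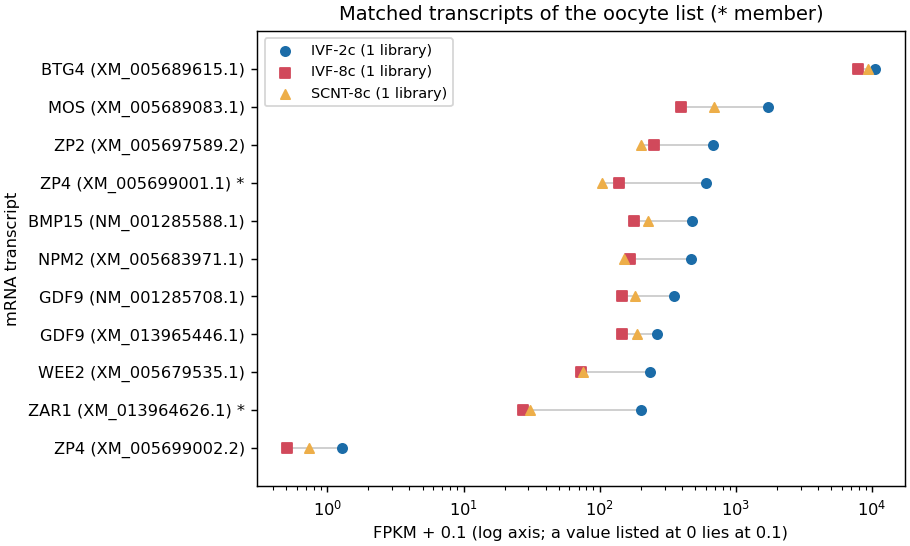
FPKM + 0.1 on a log axis of the matched transcripts of the oocyte marker list in IVF-2c (circle), IVF-8c (square) and SCNT-8c (triangle), 1 library each, with members starred. The circle lies to the right in every row, the gap is widest for ZAR1, and BTG4 has the 3 symbols close together at the far right.

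The pathway lists were read beside the 1.29% of named XM_ transcripts at the minimum that were members, a share that gives less than 1 member in a list of this size. Meiosis and cytostatic arrest had 1 member, ESPL1, among 46 transcripts at the minimum. Of the 46, 9 (19.6%, near the 16.9% of all with a symbol) were lower in both 8-cell libraries by a log2 ratio above 1. ESPL1 is among the 9 by construction. Translational control of maternal mRNA had no member among 18, and mRNA deadenylation and decay none among 30, with median falls of 0.56 to IVF-8c and 0.14 to SCNT-8c for the latter. DNA and histone modifying enzymes (9 transcripts), TGF-beta and BMP signalling (7), Wnt signalling (10), and ubiquitin ligases and deubiquitinases (23) also had none, the last list not including TRIM36, CBLC or FANCL. The list of subcortical maternal complex and other maternal-effect genes had ZAR1 among 8, and that of oocyte transcription factors and chromatin proteins had no member among 4. The egg coat and oocyte-secreted list had ZP4 among 6. Fewer than 80% of the genes of each list were matched, so these counts hold for matched transcripts only. They also include NM_ transcripts, which the rule keeps out, while the 1.29% is over XM_ transcripts alone. In the egg coat list these were BMP15, KIT and a GDF9 transcript. The others were BMP4 and BMPR1B (TGF-beta and BMP signalling), a LEF1 transcript (Wnt signalling) and a CDK2 transcript (meiosis).

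For comparison, ribosomal protein mRNAs went the other way. Of 61 transcripts at the minimum, 52 (85.2%) were higher in both 8-cell libraries, beside 24.9% of the 3651 with a symbol, with a median log2 ratio of IVF-2c to IVF-8c of -1.38 and to SCNT-8c of -1.17, and none was a member. After median-ratio scaling the shares were 88.5% and 38.7%. Some of the 61 carry NM_ accessions and could not be members. The 3 transcripts of the genome activation list at the minimum were all higher in both 8-cell libraries.

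Markers of cells other than the embryo were examined beside these results. Of 19 cumulus or granulosa cell markers, 12 were matched, and their summed level was 84.1 FPKM in IVF-2c and, at the 8-cell stage, 73.1 (IVF-8c) and 95.8 (SCNT-8c). The receptors FSHR and AMHR2 and the inhibin subunit INHA were at or near 0 in all libraries. HAS2 was present in every library, at 16.7, 20.7 and 21.3 FPKM, and VCAN was at 14.9, 5.64 and 6.12. Another gene of that list, STAR, moved like the members, at 47.2, 11.4 and 12.4 FPKM, while TNFAIP6 went from 2.22 to 26.6 and 51.2. Of 18 fibroblast markers, 10 were matched and summed to 152, 92.0 and 106 FPKM, mostly from DCN. The main DCN transcript was at 114, 54.1 and 54.1 FPKM, and FN1 was at 24.4, 10.7 and 14.6. LUM, COL1A2, COL3A1, PDGFRA, THY1 and S100A4 were low in IVF-2c and listed higher in both 8-cell libraries. LUM, for instance, was at 3.56, 9.53 and 15.7 FPKM and COL1A2 at 2.12, 2.51 and 3.46. Of 18 sperm markers, 5 were matched and summed to 0.0170, 4.38 and 3.26 FPKM. The part of other cells in the members' levels was not tested.

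The limits cut through a continuous range of values. Just inside the limit of 5 FPKM were XM_005678726.2 at 5.04 FPKM, ACP6 and XM_005695550.2 at 5.23. Just outside were XM_005687931.2 at 4.91, ORAI1 at 4.90 and XM_013975016.1 at 4.90, each with both falls above 2. For the fall to IVF-8c, LOC102173875 (2.01), XM_013974535.1 (2.01) and XM_013974880.1 (2.02) were just inside, and HEATR5B (1.99), ATL3 (1.97) and XM_013971309.1 (1.97) just outside. For the fall to SCNT-8c, XM_013977220.1, XM_005693746.2 and XM_013976832.1 were inside at 2.0015, 2.0020 and 2.0030, and OSBPL1A (1.9964), IFT52 (1.99) and SQRDL (1.99) outside. For the ratio between 8-cell libraries, XM_013970872.1 (-1.02), TEX264 (1.04) and XM_013968083.1 (1.07) were just outside. HEATR5B, for instance, was listed at 13.6, 3.33 and 3.01 FPKM, hardly different in pattern from members such as TMEM125 at 8.43, 1.93 and 1.67. LGALS16 (NM_001285650.1), at 112, 18.0 and 27.3 FPKM, met every limit but carries a curated NM_ accession and was therefore no member.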

How the data were processed

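The sample labels name 1 embryo library for each condition (IVF-2c, IVF-8c, SCNT-8c). The values used were FPKM per mRNA transcript as the authors deposited them. The submitters' processing notes name TopHat2 2.0.12, Bowtie2 2.2.3, Cufflinks 2.1.1 and Cuffdiff. The genome build is not given in the sources used here. Whole fragments could not be recovered from the FPKM, which leaves depth unknown, and no interval or floor was computed. The lncRNA table and the fibroblast experiment were not used here.

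Log2 ratios of FPKM + 0.1 were computed in pandas 2.3.3 and numpy 2.4.6 under Python 3.11.15, and figures drawn with matplotlib 3.10.9. No p-value was computed, with 1 library per condition. The members, gene lists and limits were chosen with earlier results of these data known. Named in the text are the 15 named members highest in IVF-2c, the 10 with the largest smaller fall, members in a list, transcripts at each limit, the highest members without a symbol, those most apart between 8-cell libraries, and the genes with the highest other transcripts. The remaining named members were added after their values were seen, so that each gene name is accounted for. Alternatives were other pseudocounts, scalings, minimums and limits, and sums per gene. Protein and promoter features were not analysed here.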

Additional observations from a re-analysis of the deposited data

How the results depend on the processing

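No paired analysis was possible because each condition had 1 library. The 176 members became 116 with a pseudocount of 1 (103 shared), 82 with median-ratio scaling, 83 with equal sums (82 shared), 347 with a minimum of 1 FPKM, 569 with none, 1400 with a fall limit of 1, 31 with a limit of 3, and 38 genes when transcripts were summed. The other 7 alternatives gave 129 to 208. Under all pseudocounts and scalings 71 members passed and 105 did not, so the count rests on the scale. List members numbered 3, but 1 under median-ratio scaling or equal sums.

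The median of the smaller fall, 2.34 as reported, was 2.36 with a pseudocount of 0.01, 2.37 with 1, 2.37 with median-ratio scaling, 2.40 with equal sums, 2.32 without the 10 highest, 2.46 at 1 FPKM, 2.48 with no minimum, 1.39 and 5.87 at fall limits of 1 and 3, 2.36 at an 8-cell limit of 0.5, 2.36 with no 8-cell limit, 2.29 above 0 only, and 2.14 summed. The median ratio of IVF-8c to SCNT-8c, -0.03, was 0.00 with a pseudocount of 1, a minimum of 1 FPKM, no minimum or a fall limit of 3, -0.0046 with median-ratio scaling, -0.0097 with equal sums, -0.0425 without the 10 highest, -0.0633 at 10 FPKM, -0.0694 at a fall limit of 1, -0.0044 at an 8-cell limit of 0.5, -0.0353 with no 8-cell limit, -0.0784 above 0 only, and -0.0751 summed. Which of these differences exceed library-to-library variation was not tested.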
